A study of Mus musculus with 28 samples.

Results

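Leydig cells lie between the seminiferous tubules of the testis and make its testosterone. The 10 genes described here encode the receptor, the cholesterol carrier and the enzymes of that synthesis, a Leydig peptide hormone, and a pair of enzymes that act on testosterone. They were taken by symbol: Lhcgr, Star, Cyp11a1, Cyp17a1, Hsd3b1, Hsd3b6, Hsd17b3, Insl3, Srd5a1 and Cyp19a1. All 10 were found among the 43280 gene rows. All 10 had at least 1 count in the knockout libraries, and 8 had at least 1 count in the sorted libraries.

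The study measured polyadenylated RNA in 28 mouse testis libraries, 18 of whole testis and 10 of sorted cells. The 18 libraries came from NANOS2 KO mice of CD1 background, with 2 libraries on each of 9 days, from day 42 to day 50 after an injection of retinoic acid. The 10 reference libraries came from RFP-positive cells of RFP heterozygote, Amh-Cre-positive mice, in which Cre under the Amh promoter switches on the reporter in Sertoli cells. The labels sort them into 5 stage windows of the seminiferous cycle with 2 libraries in each, with XI-XII in group A, I-III in group B, IV-VI in group C, VII-VIII in group D and IX-X in group E. Both sets of mice had first received WIN 18,446, a blocker of retinoic acid synthesis, for 7 days. Both then received retinoic acid, a sequence that sets tubules with germ cells to the same stage. The sorted libraries are labelled with the whole span of 42 to 50 days after retinoic acid, with no day of their own. The strain of 9 sorted libraries is given as derived from C57BL/6 x 129s4/SvJae, and that of group A replicate 1 as C57BL/6 x Amh-Cre. The labels do not give ages, and do not say whether replicates were separate animals, so that p-values measure the spread between these libraries. No untreated mice and no whole testes with germ cells are among the libraries used here.

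A cell type of Sertoli is entered for the knockout libraries too, although their tissue was whole testis. Levels are given as CPM, the counts of a gene scaled to a common library total. Summed CPM of 16 Sertoli genes ran from 14546 to 17170 in the knockout and from 8057 to 13459 in sorted cells. Summed CPM of 8 elongating spermatid genes ran from 0 to 2.97 in the knockout and from 2730.05 to 14610.3 in sorted cells. Nanos2 itself, active in a small share of spermatogonia, had 0 counts in the knockout and 2 counts in the sorted libraries, which does not check the genotype. Library totals ran from 1336742 to 4370138 counts in the knockout and from 1901743 to 5279746 in sorted cells. A gene with 0 counts may thus lie at up to 0.686 to 2.24 CPM in a knockout library and up to 0.568 to 1.58 CPM in a sorted one, the level of 3 counts, for counting error only. Day 49 replicate 1 of the knockout stood apart from the other 17 knockout libraries. Mitochondrially encoded genes took 0.715% of its counts against 2.33 to 3.24% in those, 16779 genes had a count against 16862 to 19621, and its TMM scaling factor was 0.962 against 0.989 to 1.02.

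Pituitary luteinising hormone binds the receptor Lhcgr on Leydig cells and raises cyclic AMP. Star then brings cholesterol to the inner mitochondrial membrane, where Cyp11a1 cuts its side chain to give pregnenolone. The 3-beta-hydroxysteroid dehydrogenases Hsd3b1 and Hsd3b6, the hydroxylase and lyase Cyp17a1 and the reductase Hsd17b3 carry pregnenolone on to testosterone. In the mouse, Hsd3b6 is known as the form of adult Leydig cells, and Insl3 is a peptide hormone of Leydig cells that acts in testis descent. Srd5a1 reduces testosterone to dihydrotestosterone, and Cyp19a1, the aromatase, turns it into estradiol.

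All 10 are protein-coding genes, and their spans are given here from GENCODE M21 on GRCm38, the build of mm10. Lhcgr lies on the minus strand at chr17:88716481-88791990, Star on the plus strand at chr8:25806555-25815982 and Cyp11a1 on the plus strand at chr9:58006411-58027023. Cyp17a1 lies on the minus strand at chr19:46667165-46673172 and Hsd17b3 on the minus strand at chr13:64058266-64089230. Insl3 lies on the plus strand at chr8:71689214-71690575, Srd5a1 on the minus strand at chr13:69573449-69611442 and Cyp19a1 on the minus strand at chr9:54165937-54268110. 

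Hsd3b1, at chr3:98852194-98859794, and Hsd3b6, at chr3:98805504-98814443, lie close together on the minus strand, and their coding sequences show how far a short read can tell them apart. Both are 1119 bases long, and 1007 bases are the same at the same position. The first 90 coding bases of each, from GENCODE M21 transcripts of GRCm38, are given with the 12 bases that differ in capitals.
Hsd3b1: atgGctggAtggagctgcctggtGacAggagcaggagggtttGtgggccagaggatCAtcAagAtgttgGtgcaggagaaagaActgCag
Hsd3b6: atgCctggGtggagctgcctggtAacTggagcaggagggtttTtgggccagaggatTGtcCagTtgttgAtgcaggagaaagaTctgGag
Of all stretches of 50 bases in their transcripts, 4.86% in Hsd3b1 and 15.6% in Hsd3b6 also occur in a transcript of another gene. For Hsd3b6 the other genes are mostly Hsd3b2 and Hsd3b3, which hold 13.2% and 12.2% of its stretches, while Hsd3b1 holds 2.11%. Insl3 shares 61.8% of its stretches with Jak3, a kinase gene with exons on the same strand at the same place. Srd5a1 shares 15.1% with the predicted gene Gm17108, and Cyp11a1 shares 2.06% with other genes, nearly all with Gm17322. Counts of Hsd3b1, Hsd3b6, Insl3 and Srd5a1 are uncertain to that extent, since the counting step is not given in the sources used here.

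Upstream sequence is shown for 3 members because Cyp11a1 and Hsd17b3 varied together across the knockout libraries, while Lhcgr did not vary with them. RefSeq promoter windows of GRCm38.p6, from 250 bases before to 50 bases after a start site, were at hand for 8 members, in 11 windows. They were searched on both strands for AGGTCA, the core of the sequence bound by the nuclear receptor Nr5a1. It stood in 3 of the 11 windows, 1 each of Cyp11a1, Lhcgr and Cyp19a1, and in 5340 of all 32851 windows, or 16.3%. Each sequence runs 5′ to 3′ on the strand of the gene and covers the 250 bases before the start, with AGGTCA in capitals.
Cyp11a1, chr9:58014702-58014951, plus strand: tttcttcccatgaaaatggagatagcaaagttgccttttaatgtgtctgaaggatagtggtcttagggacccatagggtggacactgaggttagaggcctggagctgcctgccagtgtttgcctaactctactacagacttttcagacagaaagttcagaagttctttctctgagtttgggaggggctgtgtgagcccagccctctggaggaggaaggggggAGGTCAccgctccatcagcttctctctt
Hsd17b3, chr13:64089202-64089451, minus strand: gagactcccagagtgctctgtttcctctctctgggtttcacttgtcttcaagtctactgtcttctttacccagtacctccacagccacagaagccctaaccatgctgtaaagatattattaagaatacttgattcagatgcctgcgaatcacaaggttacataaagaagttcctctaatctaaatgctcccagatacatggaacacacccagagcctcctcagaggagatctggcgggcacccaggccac
Lhcgr, chr17:88792015-88792264, minus strand: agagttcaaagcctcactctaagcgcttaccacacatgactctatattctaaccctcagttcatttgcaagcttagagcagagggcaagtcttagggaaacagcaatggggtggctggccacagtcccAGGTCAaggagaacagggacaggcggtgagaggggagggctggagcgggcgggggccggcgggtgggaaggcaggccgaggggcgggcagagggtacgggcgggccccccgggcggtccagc
The motif began 28 bases before the start of Cyp11a1 and 122 bases before that of Lhcgr, and these letters were not in the window of Hsd17b3. The Cyp11a1 window belongs to 1 of 2 RefSeq starts and lies within the gene as GENCODE draws it. The window of the other start, chr9:57997774-57998073, does not hold the motif.

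The first comparison set the 18 whole testis libraries of the knockout against the 10 sorted Sertoli libraries. Steroidogenic RNA was abundant in the germ-cell-free testes and scarce in the sorted cells. The 10 genes together took 2711 to 7053 CPM in the knockout, 0.271 to 0.705% of a library, with a median of 4341 CPM. In sorted libraries they took 28.1 to 61.7 CPM. Tissue, strain, genotype and sorting differ together between these sets and cannot be told apart. In whole tissue, fewer cells of a type and less RNA per cell cannot be told apart either.

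Lhcgr, the hormone receptor at the head of the pathway, had 173 ± 35.9 CPM (SD, n = 18) in the knockout, with a range of 91.4 to 248 CPM. It had 0 counts in all 10 sorted libraries. Over the pooled counts Lhcgr thus has no measured ratio. With 3 counts over the sorted set assumed as a floor, its knockout level was 2177 times that floor. The lower end of an exact binomial 95% interval was 1770, for counting error only. Insl3, the peptide hormone, had 17.3 ± 8.96 CPM in the knockout, with a range of 6.98 to 38.5 CPM. It too had 0 counts in the sorted set, and its knockout level was 220 times the same floor, with a lower interval end of 178. Both genes are thus seen in every knockout library and in no sorted one.

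Star, the cholesterol carrier, had 549 ± 118 CPM in the knockout, from 340.1 to 792 CPM, and 20.4 ± 5.04 CPM (SD, n = 10) in sorted cells, from 11.5 to 29.8 CPM. Its pooled ratio was 26.7 (95% interval 24.9 to 28.8, an exact binomial interval that covers counting error only, as do those below). Cyp11a1 had 1144 ± 467 CPM in the knockout, from 612 to 2269 CPM, against 1.63 ± 2.26 CPM in sorted cells, where 3 of 10 libraries had 0 counts. Its pooled ratio was 701 (545 to 916). Star thus had a count in every sorted library, while the enzyme that follows it was near the limit of detection there.

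Among the enzymes of the later steps, Hsd3b6 had 999.97 ± 194 CPM in the knockout, from 543 to 1244 CPM, and 10 counts in all in sorted cells, with 6 libraries at 0. Its pooled ratio was 3806 (2069 to 7937), above that of Hsd3b1, at 157 (127 to 198). Hsd3b1 had 341 ± 78.4 CPM in the knockout, from 208 to 475 CPM, and 2.66 ± 3.60 CPM in sorted cells. Cyp17a1 had 1059.6 ± 527 CPM in the knockout, from 389 to 2118 CPM, and 1.52 ± 1.21 CPM in sorted cells, a pooled ratio of 707 (544 to 936). Hsd17b3, the last step to testosterone, had 127 ± 61.8 CPM, from 36.2 to 267 CPM, and 2.43 ± 2.42 CPM in sorted cells, a pooled ratio of 49.4 (40.4 to 61.1). For Lhcgr, Star, Insl3 and the 5 enzymes from Cyp11a1 to Hsd17b3, the lowest knockout library stood above the highest sorted one. The share of all genes that separated in this way is not given here. The joint fit below called 38.0% of all genes tested higher in the knockout.

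The enzymes that act on testosterone did not share this pattern. Srd5a1 had 18.3 ± 4.88 CPM in the knockout, from 8.98 to 29.1 CPM, and 10.2 ± 3.46 CPM in sorted cells, from 2.18 to 14.5 CPM, so that the sets overlapped. Its pooled ratio was 1.80 (1.60 to 2.03). Cyp19a1 had 1 count in all 18 knockout libraries, in day 44 replicate 2. In sorted cells it had 34 counts, with at least 1 in each of the 10 libraries and a mean of 0.828 ± 0.571 CPM. The sorted-to-knockout ratio of Cyp19a1 was 42.1, with an interval of 7.06 to 1710 from the counts.

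**Figure D1:**
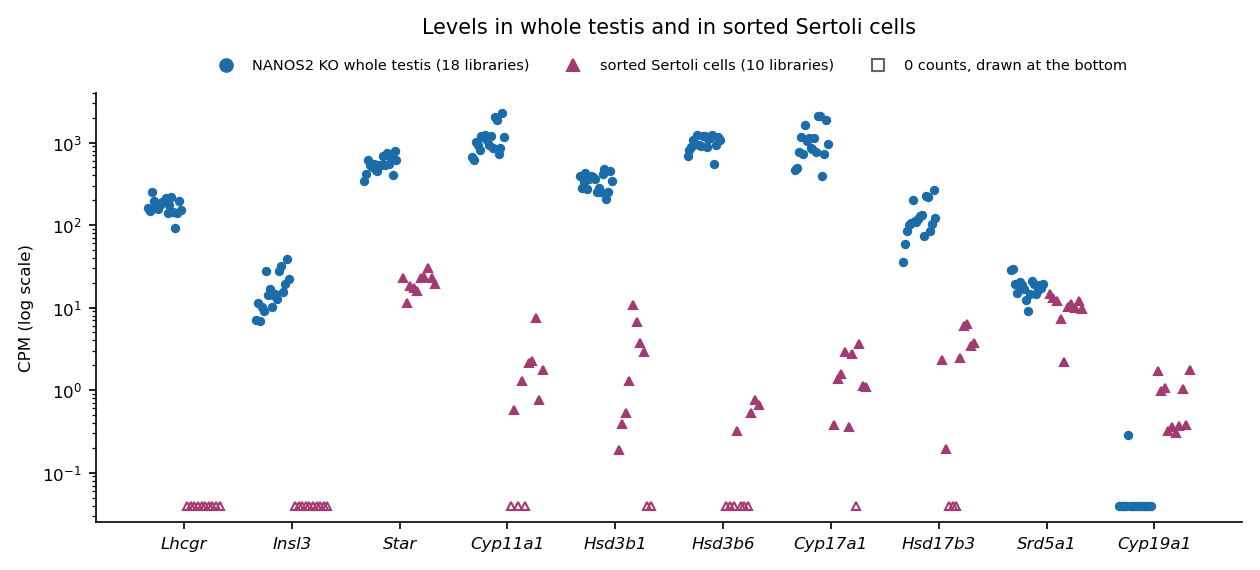
Levels of the 10 genes in each library, in CPM on a log axis, for the 18 knockout whole testis libraries (circles) and the 10 sorted Sertoli libraries (triangles), with open symbols at the bottom for 0 counts. Lhcgr and Insl3 have 0 counts in all sorted libraries, Srd5a1 overlaps between the sets, and Cyp19a1 is the gene with more counts in the sorted set.

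A joint fit with edgeR's quasi-likelihood test took the mean of the 9 days minus the mean of the 5 stage groups. It could test 9 members, all but Cyp19a1, and called all 9 higher in the knockout at a Benjamini-Hochberg adjusted p under 0.05. The filter on low counts removed Cyp19a1, the member with more counts in the sorted set. Lhcgr, Cyp11a1, Hsd3b6 and Insl3 did not pass that filter in the sorted libraries alone. They entered through the knockout, where they are high, so the count of 9 was partly set in advance and describes the sets. Of all 15777 genes tested, 38.0% were called higher. The log2 differences were 12.31 (SE 0.22) for Hsd3b6, 11.84 (SE 0.28) for Lhcgr, 9.48 (SE 0.25) for Cyp11a1, 8.90 (SE 0.27) for Cyp17a1, 8.41 (SE 0.46) for Insl3 and 8.32 (SE 0.17) for Hsd3b1. Hsd17b3 followed with 6.39 (SE 0.29) and Star with 4.36 (SE 0.13). The fitted values of Lhcgr and Insl3 depend on the prior count and are no bound. Srd5a1 had a log2 difference of 0.47 (SE 0.16, adjusted p = 0.00793 by edgeR's quasi-likelihood test), with the sets overlapping. The median over the 9 members was 8.41, and that over all genes was -0.17. Scaling by total counts moved the latter to 0.21 and turned the split of all calls from 6003 higher and 7416 lower to 7557 higher and 5849 lower. No member lost its call or its direction under the other scalings, DESeq2, no filter, the replicate block or the removal of any 1 library, and the log2 difference of Srd5a1 then ran from 0.33 to 0.86.

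To compare genes with each other within the knockout, CPM was divided by the summed exon length of the gene in GENCODE M21. Hsd3b6 led with 555 ± 108 CPM per kilobase (SD, n = 18). Cyp17a1 followed with 383 ± 190, Cyp11a1 with 238 ± 97.2, Hsd3b1 with 184 ± 42.2 and Star with 133 ± 28.6 CPM per kilobase. Each of these overlapped the next within 1 SD. Hsd17b3 came next with 91.0 ± 44.4 CPM per kilobase and also overlapped Star within 1 SD. Below a gap lay Insl3 with 27.7 ± 14.4 and Lhcgr with 22.6 ± 4.70 CPM per kilobase, which overlapped each other. Srd5a1, at 6.29 ± 1.68, and Cyp19a1, at 0.00348 ± 0.0148 CPM per kilobase, were each more than 1 SD apart from the gene above. By these counts the hormone receptor was about as abundant per length as Insl3, and Star and the 5 enzymes from Cyp11a1 to Hsd17b3 stood above both. The place of Insl3 is uncertain, since 61.8% of its stretches of 50 bases are shared with Jak3 and the counting step is not given.

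The second comparison asked whether the members differed among the 9 days of the knockout, a span just short of 1 cycle of the seminiferous epithelium. Cyp11a1, Cyp17a1, Hsd17b3 and Insl3 did so, and the other 5 tested members did not pass the test. The 3 enzymes were low on day 42, high on day 48 and below their medians on day 49. On day 50 replicate 1 was high for them and replicate 2 was near the middle. Insl3 was low on days 42 and 43 and high on days 48 and 50, and on day 49 it was above its median of 14.5 CPM. In edgeR's quasi-likelihood F test over 9 days, 4 of 9 tested members were called, and of all 13065 genes tested 0.582% were called.

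Cyp11a1 opens the pathway by cutting the side chain of cholesterol. It had 662 and 612 CPM on day 42 in replicates 1 and 2, and 1016 and 922 CPM on day 43. From day 44 to day 47 it had 804 and 1199, 1166 and 1218, 1076 and 925, and 1210.5 and 859.6 CPM. On day 48 it had 2020.3 and 1893 CPM, on day 49 it had 721 and 847 CPM, and on day 50 it had 2269 and 1166 CPM. Both day 42 libraries were below all others and both day 48 libraries were above all but day 50 replicate 1. The highest library was 3.71 times the lowest, and the adjusted p was 0.00352 by edgeR's quasi-likelihood F test.

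Cyp17a1, which takes the pathway to the androgens, ranged 5.45-fold from the lowest to the highest library. It had 460.5 and 488 CPM on day 42, 762 and 1164 CPM on day 43, 724 and 1608 CPM on day 44, and 1046 and 1125 CPM on day 45. It had 867 and 843 CPM on day 46, 1121 and 762 CPM on day 47, 2070.2 and 2118 CPM on day 48, 389 and 727 CPM on day 49, and 1851 and 947 CPM on day 50. Its 3 lowest libraries were day 49 replicate 1 and both of day 42, and its 2 highest were both of day 48 (adjusted p = 0.0104, edgeR's quasi-likelihood F test).

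Hsd17b3 makes testosterone from androstenedione. It had 36.2 and 58.6 CPM on day 42, 83.8 and 99.4 CPM on day 43, 105 and 199 CPM on day 44, and 112 and 109 CPM on day 45. It had 119 and 129 CPM on day 46, 132 and 74.0 CPM on day 47, 227 and 216 CPM on day 48, 83.9 and 104 CPM on day 49, and 267 and 122 CPM on day 50. Both day 42 libraries were again the lowest, and the span of 7.39-fold was the widest of the members with counts in every library (adjusted p = 0.0104, edgeR's quasi-likelihood F test).

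Insl3 had 7.06 and 11.4 CPM on day 42, 6.98 and 10.2 CPM on day 43, and 9.18 and 27.5 CPM on day 44. It then had 14.2 and 16.9, 10.2 and 14.2, and 14.8 and 12.7 CPM on days 45, 46 and 47. On day 48 it had 27.7 and 31.7 CPM, on day 49 it had 15.6 and 19.5 CPM, and on day 50 it had 38.5 and 22.5 CPM. Its adjusted p was 0.0482 by edgeR's quasi-likelihood F test, close to the threshold. Jak3, which overlaps it, had 41.6 ± 14.3 CPM in the knockout and peaked in the same library as Insl3, at 90.04 CPM on day 50 replicate 1. The share of Jak3 reads in the Insl3 values was not tested.

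These calls rest on days 42 and 48, and that of Insl3 also on day 50. Without both libraries of day 42, none of the 9 tested members was called by edgeR, with an adjusted p of 0.0506 for Cyp11a1, 0.126 for Cyp17a1, 0.152 for Hsd17b3 and 0.156 for Insl3. Without day 48 none was called either, with adjusted p of 0.0559, 0.167, 0.0567 and 0.178 in the same order. Without day 50 the call of Insl3 was lost (edgeR adjusted p = 0.0844). The days to leave out were chosen after seeing the data. Leaving out single libraries, Cyp11a1 kept its call in all 18 cases. Cyp17a1 lost it without day 42 replicate 1 (adjusted p = 0.0565) or day 48 replicate 2 (0.0514), both by edgeR's test. Hsd17b3 lost it without day 42 replicate 1 (edgeR adjusted p = 0.0658). Insl3 lost it without any 1 of 13 libraries and with scaling by total counts (0.0562, edgeR). DESeq2 called 7 of the 9, all but Lhcgr and Srd5a1. It also called more of all genes than edgeR did, as given with the other alternatives at the end.

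The members that did not pass still varied. Star ran from 340.1 CPM on day 42 replicate 1 through a median of 534 CPM to 792 CPM on day 50 replicate 1 (adjusted p = 0.203, edgeR F test). Lhcgr ran from 91.4 CPM on day 49 replicate 1 through 174 to 248 CPM on day 43 replicate 1 (edgeR adjusted p = 0.310). Hsd3b1 ran from 208 through 347 to 475 CPM (edgeR adjusted p = 0.119). Hsd3b6 ran from 543 through 1019 to 1244 CPM (edgeR adjusted p = 0.217). Day 49 replicate 1, the library with the low mitochondrial share, was the lowest for Lhcgr, Hsd3b1, Hsd3b6 and Cyp17a1. Without it the same 4 members were called over the days, and Star as well (edgeR adjusted p = 0.0143). Srd5a1 differed in shape: both day 42 libraries were its highest, at 28.7 and 29.1 CPM, and day 46 its lowest, at 12.3 and 8.98 CPM (edgeR adjusted p = 0.203). All 9 members had an unadjusted p under 0.05 in this test, as had 1455 of the 13065 genes.

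**Figure D2:**
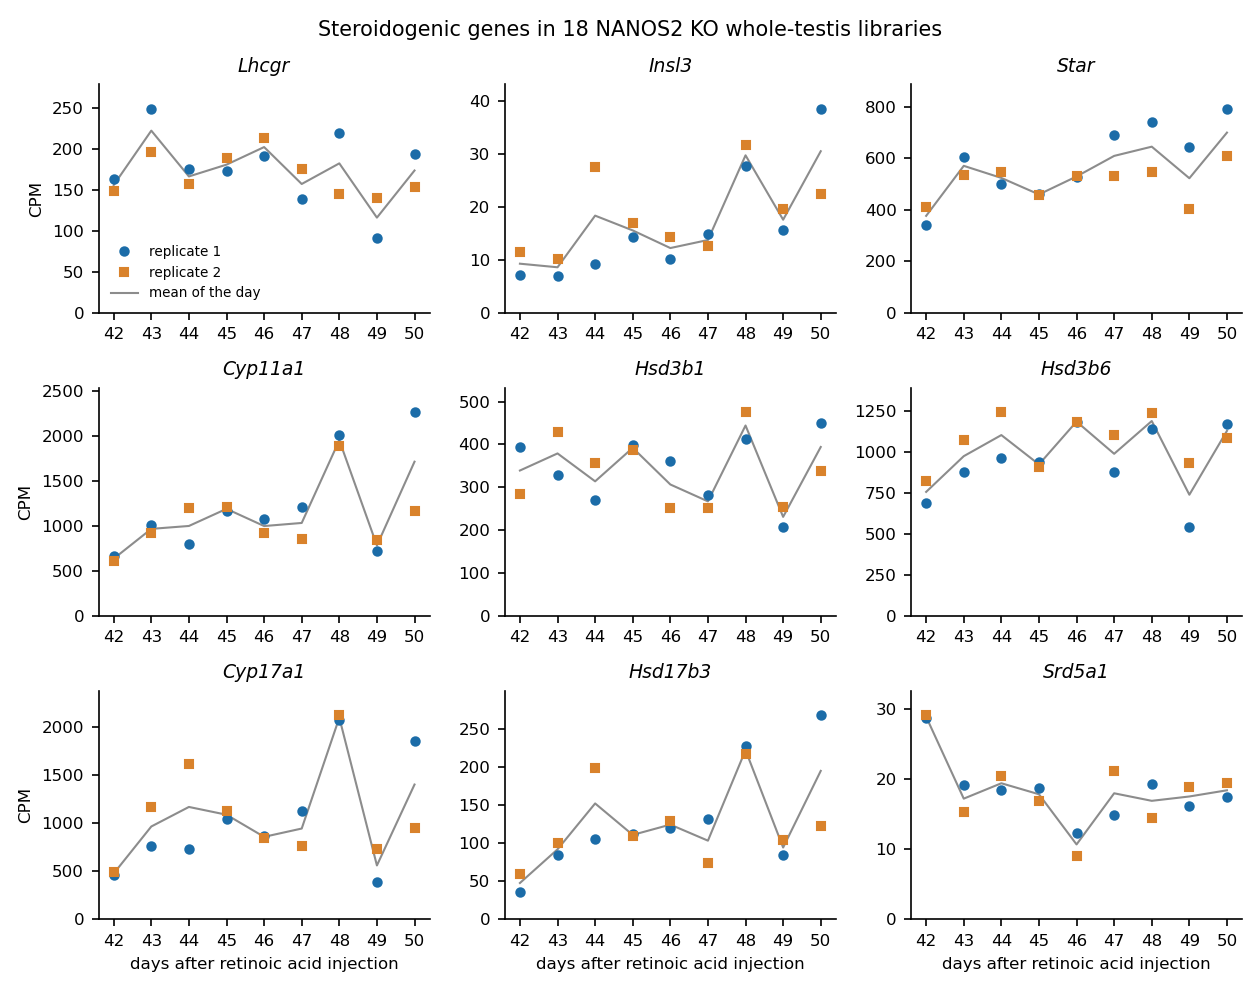
CPM of 9 members in each knockout library by day after the retinoic acid injection (circles replicate 1, squares replicate 2, line the mean of the day; each axis starts at 0). Cyp11a1, Cyp17a1, Hsd17b3 and Insl3 are high on day 48 and in day 50 replicate 1, and Srd5a1 is highest on day 42.

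The members summed to 2783 and 2867 CPM on day 42 and to 2711 CPM in day 49 replicate 1, their 3 lowest libraries. They summed to 6882 and 6681 CPM on day 48 and to 7053 CPM in day 50 replicate 1. The 7 stroma genes summed to 1924 and 1505 CPM on day 42 and to 2187 CPM in day 49 replicate 1, against 1071 to 1336 CPM in the other 15 libraries. In day 49 replicate 1 this sum rested on 1 gene, the collagen gene Col1a2, at 1479 CPM against a median of 382 CPM. Without Col1a2 the other 6 stroma genes summed to 709 CPM there, near the low end of the knockout, and to 1220 and 929 CPM on day 42, against 708 to 959 CPM in the other 15. So without Col1a2 the highest sum was in day 42 replicate 1 alone, and day 42 replicate 2 lay below day 46 replicate 1. The part of stroma in the result was not tested. None of the 7 stroma genes was called over the days by edgeR, and DESeq2 called 0. Of the 7 genes, 4 had an unadjusted p under 0.05, as had 1455 of all 13065 genes tested. The Sertoli sum varied 1.18-fold, and Sertoli genes as the scale left the same number of calls, 4. Macrophage genes ran from 672 to 988 CPM and endothelial genes from 93.2 to 186 CPM in sum. Markers of the epididymis summed to at most 0.335 CPM in the knockout, with 5 of 6 at 0 counts.

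**Figure D3:**
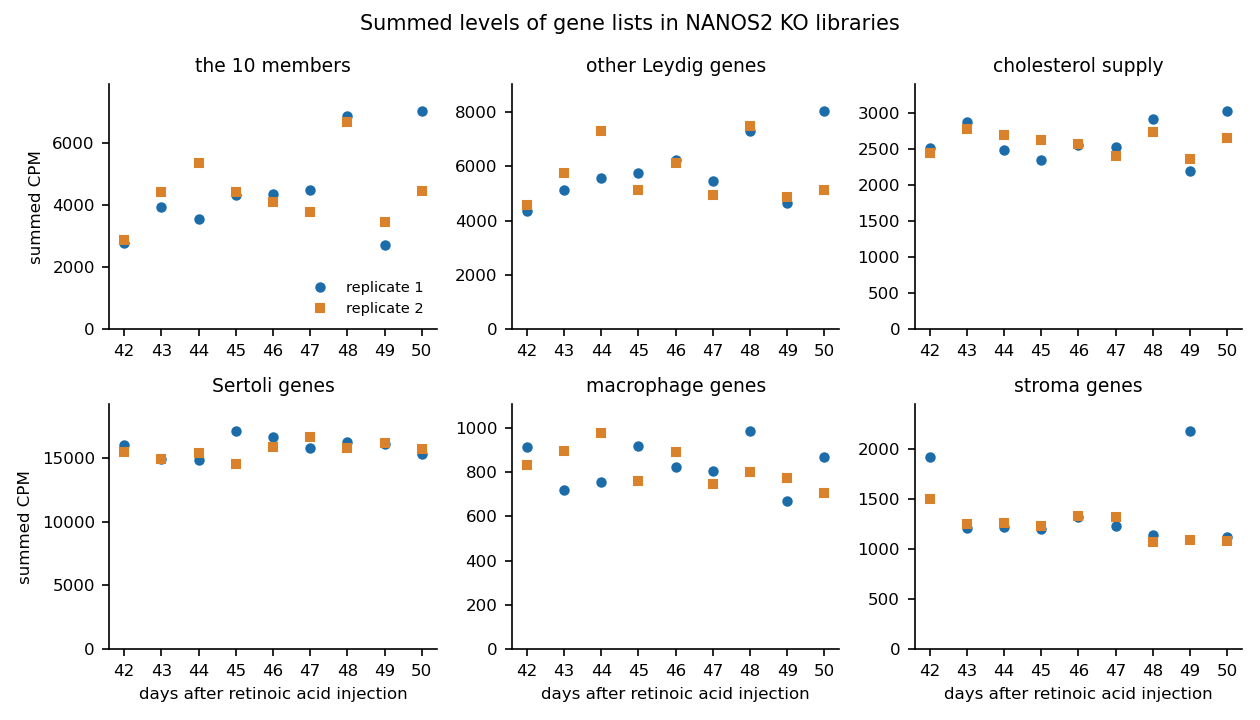
Summed CPM of 6 gene lists in each knockout library by day (circles replicate 1, squares replicate 2; each axis starts at 0). The members range from 2711 to 7053 CPM and other Leydig genes from 4368 to 8045 CPM, Sertoli genes stay within 14546 to 17170 CPM, and stroma genes have their 3 highest sums on day 42 and in day 49 replicate 1, where Col1a2 takes 1479 of the 2187 CPM.

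A straight line over the days asked for a drift, as log2 change per day. Insl3 rose by 0.19 per day (SE 0.04, adjusted p = 0.0314, edgeR's quasi-likelihood test). It was the 1 member of 9 called, and 0.490% of all 13065 genes were called higher. Hsd17b3 had a slope of 0.15 (SE 0.04), Cyp11a1 of 0.12 (SE 0.03), Cyp17a1 of 0.11 (SE 0.05) and Star of 0.07 (SE 0.02). Their adjusted p were 0.0941, 0.0729, 0.301 and 0.0884 by edgeR. Hsd3b6 had 0.03 (SE 0.02), Hsd3b1 -0.0026 (SE 0.03), Lhcgr -0.03 (SE 0.02) and Srd5a1 -0.06 (SE 0.03). Over all genes 64 slopes were called higher and 48 lower, and with Sertoli genes as the scale 18 higher and 34 lower. The median slope of the 9 members was 0.07 and that of all genes 0.0011. The call of Insl3 was lost without day 42, day 48 or day 50 (edgeR adjusted p 0.174, 0.104 and 0.0983), where the slope was 0.18, 0.17 and 0.17. It was also lost without any 1 of 7 libraries, both of day 42, both of day 48 and replicate 1 of days 43, 44 and 50, with edgeR adjusted p of 0.0565 to 0.116. Without day 49 replicate 1, Cyp11a1 and Hsd17b3 were called beside Insl3 (edgeR adjusted p = 0.0159 and 0.0346). Without day 49, 5 members were called: Insl3, Star, Cyp11a1, Cyp17a1 and Hsd17b3.

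A wave with a period of 8.6 days, the length of the mouse seminiferous cycle, was fitted next. No member was called by edgeR, and 0 of 13065 genes, or 0%, were called. Srd5a1 had the smallest p of the members (0.0243 unadjusted, adjusted p = 0.452 by edgeR) and was the 1 member under 0.05 unadjusted, as were 1262 of all genes. DESeq2 called 0 members and 60 genes in this comparison. Without the filter on low counts edgeR called 4 members, Cyp11a1, Cyp17a1, Hsd17b3 and Insl3, and 359 genes.

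The make-up of the members' counts removes the scale of the library. In the knockout, Cyp11a1 took 20.7 to 32.2% of the members' counts, Hsd3b6 took 16.6 to 29.1%, and Cyp17a1 took 14.3 to 31.7%. Star took 8.20 to 23.7%, Hsd3b1 6.00 to 14.1%, Lhcgr 2.17 to 6.29% and Hsd17b3 1.3 to 3.79%. Insl3 took 0.177 to 0.576% and Srd5a1 0.216 to 1.03%. The share of Cyp17a1 was highest in day 48 replicate 2 and lowest in day 49 replicate 1. Star had its highest share in the latter library and its lowest in the former.

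Relative to Cyp11a1, the genes did not keep fixed ratios. Cyp17a1 ran from 0.539 to 1.34 counts per count of Cyp11a1, a 2.49-fold range. Hsd3b6 ran from 0.517 to 1.34 counts, a 2.60-fold range, and Hsd3b1 from 0.199 to 0.594, a 2.99-fold range. Star ran from 0.289 to 0.891 counts, Hsd17b3 from 0.0546 to 0.166 and Lhcgr from 0.0765 to 0.246, each a range of 3.04- to 3.22-fold. Srd5a1 had the widest range, 6.23-fold. Where Cyp11a1 was highest, in day 50 replicate 1, the ratios of Hsd3b6 and Hsd3b1 were lowest.

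**Figure D4:**
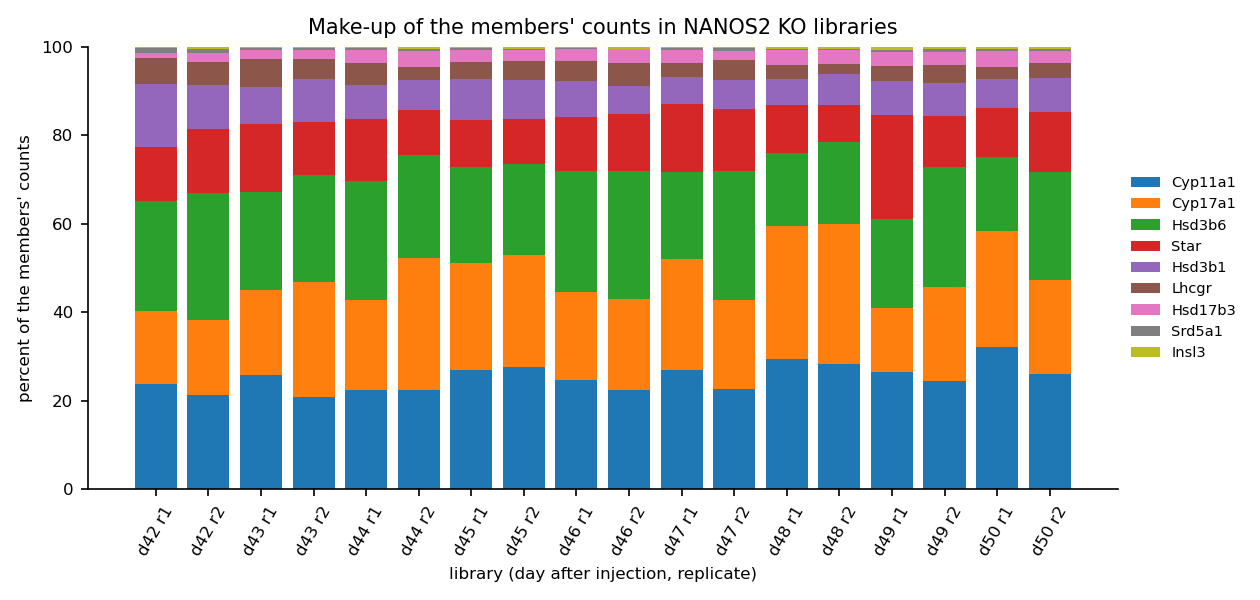
Percent of the members' counts taken by each gene in the 18 knockout libraries (stacked bars, which sum to 100; d42 r1 is day 42 replicate 1). Cyp11a1, Cyp17a1 and Hsd3b6 take most of the counts in each library, and Cyp17a1 widens to 31.7% in day 48 replicate 2.

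Whether members varied together was asked over the 18 knockout libraries, on log2(CPM + 1), for the 7 members with a mean of at least 20 CPM. Of the 21 pairs, 12 passed by Pearson's r and 10 by Spearman's rho (permutation tests with 100000 resamples, two-sided, adjusted over the pairs). The resamples shuffled all 18 libraries freely and did not keep the 2 libraries of a day together. The permutation p here and below may thus be too small where days differ. Cyp11a1 and Cyp17a1 had r = 0.92 and rho = 0.91 (adjusted permutation p = 7e-05 and 0.000315). Cyp11a1 and Hsd17b3 had r = 0.89 and rho = 0.86, and Cyp17a1 and Hsd17b3 had r = 0.88 and rho = 0.81, with adjusted permutation p of 7e-05 for r. The unadjusted p of these 3 pairs, 1e-05, is the smallest that the resamples can give. Without the 2 libraries farthest from the median of the first gene, r was 0.91, 0.83 and 0.92.

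Both day 48 libraries and day 50 replicate 1 stood apart in Cyp11a1, so the pairs were also taken over the 14 libraries without days 48 and 50, a choice made after seeing the data. Of the 21 pairs, 4 then passed by Pearson's r. Cyp11a1 and Cyp17a1 had r = 0.88 (adjusted permutation p = 0.00189), Cyp11a1 and Hsd17b3 r = 0.78 (0.00518), and Cyp17a1 and Hsd17b3 r = 0.79 (0.00518). The fourth was Cyp17a1 with Hsd3b6, at r = 0.75 (0.00908). The other 8 pairs, among them every pair with Star or Lhcgr that had passed, did not pass over these 14 libraries.

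The same 3 genes also differed together between the 2 libraries of a day: r of the 9 differences, replicate 1 minus replicate 2, was 0.93, 0.88 and 0.87. Lhcgr, the receptor, had r of 0.10 with Star, 0.31 with Cyp11a1, 0.39 with Cyp17a1 and 0.17 with Hsd17b3, none of which passed. Its r of 0.56 with Hsd3b6 passed (adjusted permutation p = 0.0413), but was 0.36 without the 2 farthest libraries. Without day 49 replicate 1 alone it was 0.17 (adjusted permutation p = 0.562). Star had r of 0.67 with Cyp11a1 and 0.70 with Hsd17b3 (adjusted permutation p = 0.00635 and 0.00563). These fell to 0.49 and 0.44 without the 2 farthest libraries, day 42 replicate 1 and day 50 replicate 1. Without day 49 replicate 1 alone they rose to 0.77 and 0.76, and r of Star with Hsd3b6 rose from 0.28 to 0.58. Hsd3b1 and Hsd3b6, the near-copies, had r of 0.46 (adjusted permutation p = 0.0836).

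The 2 members of lower count were added after seeing the data, which made 36 pairs. Insl3 had r of 0.83 with Hsd17b3, 0.76 with Cyp11a1 and 0.71 with Cyp17a1 (adjusted permutation p = 0.00018, 0.00156 and 0.00514), and -0.17 with Lhcgr (0.572). Srd5a1 had negative r with all but Hsd3b1, the lowest -0.47 with Hsd17b3, and none passed (adjusted permutation p = 0.10 for that pair). All libraries share the scale by total counts, and the members made up at most 0.705% of it.

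**Figure D5:**
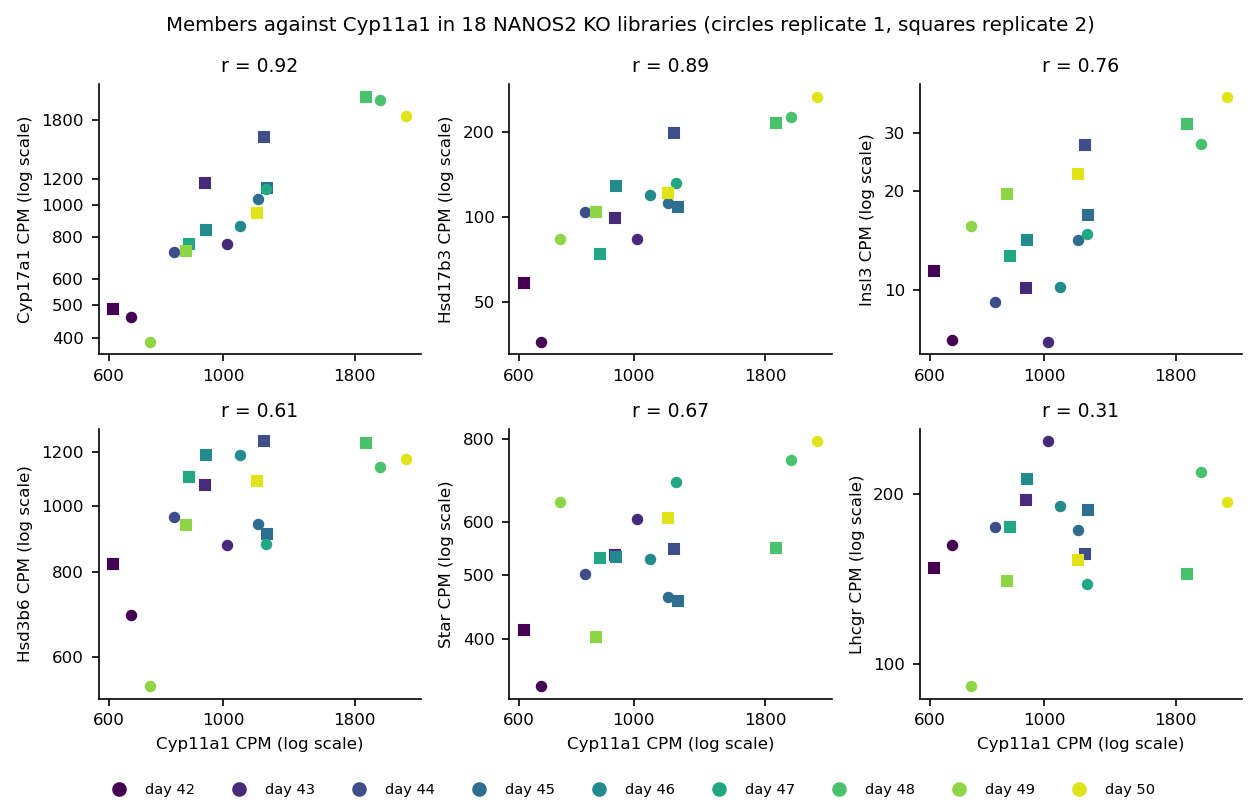
Each of 6 members against Cyp11a1 in the 18 knockout libraries, both in CPM on log axes, with colour for the day and Pearson's r of log2(CPM + 1) above each panel. Both day 48 libraries and day 50 replicate 1 lie apart at the right, with Cyp11a1 at 1893 to 2269 CPM against at most 1218 CPM in the rest; Cyp17a1 (r = 0.92) and Hsd17b3 (r = 0.89) follow Cyp11a1 more closely than Lhcgr (r = 0.31).

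The third comparison looked at the members among the stage groups of sorted Sertoli cells, where 5 passed the filter on low counts: Star, Cyp17a1, Hsd3b1, Hsd17b3 and Srd5a1. Hsd3b1 was the 1 called over the 5 groups (adjusted p = 0.00203, edgeR's quasi-likelihood F test), and 8.07% of all 14331 genes were called. It had 10.9 and 6.70 CPM in group C, from 30 and 22 counts, and 3.72 and 2.87 CPM in group D, from 10 and 11 counts. It had at most 1.28 CPM in groups A and B and 0 counts in both libraries of group E. Groups C and D, which cover stages IV to VIII, did not overlap the other 3 groups.

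Hsd17b3 had 5.96 and 6.27 CPM in group D and 3.41 and 3.73 CPM in group E. It had 2.29 and 0.194 CPM in group A, 0 counts in both libraries of group B, and 0 and 2.44 CPM in group C (adjusted p = 0.118 over the groups, edgeR F test). Cyp11a1, which was too low to test, had 29 of its 61 sorted counts in group D replicate 2. Star, at 23.5 and 29.8 CPM in group D, and Srd5a1, at 11.2 and 9.93 CPM there, had adjusted p of 0.845 and 0.683 over the groups by edgeR, and Cyp17a1 0.914.

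Group D was also set against the mean of the other 4 groups, a contrast taken up because earlier results of these data had shown Hsd3b1 higher there. The contrast restates that observation and is given as a description, with no p-value. Its log2 difference was 2.54 (SE 0.59) for Hsd3b1 and 3.16 (SE 0.85) for Hsd17b3. Group D was not the highest group for Hsd3b1, with a mean of 3.30 CPM against 8.79 CPM in group C. In edgeR's test these were 2 of 5 tested members called higher, beside 4.36% of all 14331 genes. Because the contrast was chosen from these same data, that count is no evidence of a difference in group D. Both calls were lost without either library of group D or without group E replicate 1, and that of Hsd17b3 also without any 1 library of group B or group E replicate 2. Of the 5 tested members the median was 0.48, and that of all genes 0.04. Group D replicate 2 had the highest sum of the members, 61.7 CPM, and of endothelial genes, 40.5 CPM against 13.6 to 39.0 CPM in the other 9 libraries. Of 5 tested endothelial genes, 2 were called higher in group D, as were 2 of 6 other Leydig genes and 3 of 16 Sertoli genes, with median log2 differences of 1.79, 1.27 and 0.39. Of 8 elongating spermatid genes, 5 were called lower, with a median of -2.24, and 1 of 3 macrophage and 1 of 5 myoid genes were lower too. Of 7 spermatocyte genes, 2 were higher and 1 lower. The part of these cell types in the result was not tested.

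Other genes of the pathway came from lists chosen with earlier results of these data known. Over the knockout days, edgeR called 1 of 5 genes for the electron carriers of the steroidogenic enzymes. This was Fdx1, the ferredoxin that passes electrons to Cyp11a1, at 120.1 ± 32.8 CPM (adjusted p = 0.0246). It had 71.9 and 77.8 CPM on day 42 and 196 and 158 CPM on day 48. Of 10 tested other Leydig genes, edgeR called 2 and DESeq2 called 1, and 9 had an unadjusted p under 0.05. Of all 13065 genes tested, edgeR called 0.582%, and 1455 had an unadjusted p under 0.05. The 2 genes called by edgeR were Agt and Ptgds. Agt, which encodes angiotensinogen, had 609.6 and 503 CPM on day 42 and 1470.3 and 1701 CPM on day 48 (edgeR adjusted p = 0.0256). Ptgds, a prostaglandin D synthase, had 167 and 165 CPM on day 42 and 939 and 853 CPM on day 48 (edgeR adjusted p = 0.0468). Its highest library was day 44 replicate 2, at 1044 CPM, against 318 CPM in replicate 1. On day 50 Ptgds had 961 and 477 CPM.

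The other pathway lists had no call over the days by edgeR. Their counts at an unadjusted p under 0.05, here and in the next paragraph, stand beside 1455 of all 13065 genes tested. Of 14 genes of cholesterol supply, 4 had an unadjusted p under 0.05 and DESeq2 called 2. Scarb1, the lipoprotein receptor, had 505 ± 69.0 CPM, and Soat1, which esterifies cholesterol, had 500.3 ± 51.4 CPM. Of 9 genes of hormone signalling after the receptor, 1 had an unadjusted p under 0.05 and DESeq2 called 0. Gnas, the stimulatory G protein, had 1018 ± 50.2 CPM and Prkar1a, a regulatory subunit of protein kinase A, had 391 ± 67.2 CPM. In this list Akap1, an anchor of protein kinase A at mitochondria, had the 1 call on the line, with a slope of 0.08 (edgeR adjusted p = 0.0172), and the list had no call with Sertoli genes as the scale.

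Of 12 tested regulators of Leydig cells, 3 had an unadjusted p under 0.05 and DESeq2 called 1. Nr5a1 had 447 ± 39.4 CPM and Gata4 had 241 ± 27.98 CPM, transcription factors that Sertoli cells also express. Of 10 tested genes of further steroid metabolism, 6 had an unadjusted p under 0.05 and DESeq2 called 1. Akr1cl had 1035 ± 207 CPM and Hsd17b4 126 ± 14.3 CPM. None of the 4 tested steroid receptor genes had an unadjusted p under 0.05, and DESeq2 called 0. The glucocorticoid receptor gene Nr3c1 had 54.8 ± 7.67 CPM. Among cell type lists, 0 of 15 Sertoli, 9 macrophage, 6 endothelial and 6 myoid genes were called by edgeR, with 5, 1, 1 and 0 at an unadjusted p under 0.05, and DESeq2 called 1 Sertoli gene.

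Against sorted cells, the joint fit called 10 of 10 tested other Leydig genes higher in the knockout, with a median log2 difference of 5.76 against -0.17 over all genes. Vcam1, an adhesion molecule, was at 528 ± 76.5 CPM in the knockout and 1.95 ± 1.47 CPM in sorted cells, and Bhmt, a methyltransferase, at 870.5 ± 145 and 0.642 ± 0.647 CPM. Of 14 genes of cholesterol supply, 10 were higher and 2 lower, with a median of 1.24. Cyp51 had 2.26 (SE 0.10), while Lipe, a lipase, had -3.61 (SE 0.14). Of 9 signalling genes 3 were higher and 6 lower, and with scaling by total counts 3 and 4. Akap1 was lowest, with 44.1 ± 8.26 CPM in the knockout and 591 ± 246 CPM in sorted cells. Of 12 tested Leydig regulators 5 were higher and 4 lower, and with scaling by total counts 8 and 2. Prlr, the prolactin receptor, had 214 ± 45.6 CPM in the knockout and 2.81 ± 3.65 CPM in sorted cells. All 4 steroid receptor genes tested were higher, 3 with Sertoli genes as the scale, among them Esr1, the estrogen receptor, with 47.3 ± 6.43 CPM against 0.761 ± 0.857 CPM. Lists of other cell types were higher as well, with 7 of 9 macrophage, 6 of 6 endothelial and 6 of 7 stroma genes. The adrenal receptor gene Mc2r had 0 counts in both sets. Cyp21a1, an enzyme of adrenal steroid synthesis, had 45.4 ± 36.2 CPM in the knockout, from 20.9 to 155 CPM, and 0.355 ± 0.353 CPM in sorted cells.

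The genes most like the members were sought among 7613 genes with a mean of at least 20 CPM in the knockout. The measure was Pearson's r over the 18 libraries with the mean profile of the 7 abundant members, given as a description. Ephx1, a microsomal epoxide hydrolase, had r = 0.95 and ran from 264 to 910.3 CPM. Cyp51, a demethylase of cholesterol synthesis, had r = 0.95 and ran from 95.7 to 191 CPM. Pgbd5 had r = 0.95 and ran from 68.8 to 241 CPM. Bpifb5 had r = 0.94, the kallikrein gene Klk1b24 r = 0.93 and Idh1, an isocitrate dehydrogenase that makes NADPH, r = 0.92. Klk1b24 belongs to a family of near-identical copies, so its counts are uncertain. Ptgds and Agt ranked 7 and 8 by this measure, and Fdx1 ranked 25. All points share their libraries, so these genes carry the same high libraries of days 48 and 50.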

How the data were processed

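Whole testes of 18 libraries and sorted cells of 10 libraries were sequenced as polyadenylated RNA on an Ion Proton with a whole-transcriptome kit, per the labels. The deposited tables hold raw counts per gene, and a second deposited set in CPM that matched count / total within 0.0005, although its label names another unit. The submitters' processing notes name Bowtie, TopHat, Cufflinks and mm10, with versions, annotation and the counting step not given in the sources used here. Both day 42 columns of the knockout count table are headed replicate 1, and their numbers were taken from the CPM columns with the same values. Another 27 rows had symbols turned into dates, with 0.215 to 0.332% of the counts, and 0 columns of per-sample values went unused.

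CPM was computed on total counts. Tests used edgeR 4.0.16 in R 4.3.3, with filterByExpr, TMM factors and the quasi-likelihood F test, and Benjamini-Hochberg adjustment over all genes tested at 0.05. Each fit was tested on simulated counts. DESeq2 1.42.0, other scalings, no filter, a replicate block and the removal of each library were alternatives. Pairs used permutation tests with 100000 resamples.

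The members, the gene lists and the group D contrast were chosen with earlier results of these data known. Named were all members, up to 2 called genes a list and direction by smallest p (with no call, the 2 at the highest level), and the 6 genes most like the members. Some list genes that this rule names are not reported here. Cyp21a1 and the day 42 and day 48 values of the called list genes were chosen after the values were seen. The same holds for the day 44 and day 50 values of Ptgds. The fits have no replicate block. Same-numbered libraries did not deviate together over the knockout days, but did so in part in the sorted set, with a median r of 0.20 over 10 pairs of stage groups.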

Additional observations from a re-analysis of the deposited data

How the results depend on the processing

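The 9 calls of members against sorted cells held under every alternative, with 9 without any 1 library and 10 without a filter, and 13419 calls over all genes became 13621 to 13955 without 1 library, 13124 with Sertoli genes as the scale, 13323 by DESeq2, 13406 with total counts and 15897 without a filter. The day calls were less stable. Of members differing over the days, 4 in the fit as reported, 8 were called without a filter, 7 by DESeq2, 0 without day 42 and 0 without day 48. Leaving out 1 library gave 1 to 8, the lowest without day 42 replicate 1 and the highest without day 49 replicate 2. Over all genes the 76 calls became 968 without a filter, 215 by DESeq2, 17 without day 42, 25 without day 48 and 117 without day 50, and 24 to 909 without 1 library. On the line, the 1 member became 2 without a filter, 0 without day 42, 0 without day 48, 5 without day 49 and 0 without day 50, and 0 to 3 without 1 library. Over all genes its 112 calls became 212 by DESeq2, 2 without day 42, 3 without day 48, 309 without day 49 and 52 with Sertoli genes as the scale, and 4 to 213 without 1 library. For the 8.6-day wave, 0 members became 4 without a filter and stayed 0 without any 1 library. Its 0 genes became 359 without a filter, 60 by DESeq2, 7 without day 49 and 3 without day 50, and 0 to 9 without 1 library.

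Among the sorted groups, the 1 member became 3 without a filter and 2 by DESeq2, and 1 to 2 without 1 library. Its 1156 genes became 2764 without a filter and 2000.0 by DESeq2, and 414 to 1557 without 1 library. In group D, the 2 members became 0 to 3 without 1 library, and the 1239 genes became 1932 without a filter and 295 to 1788 without 1 library. The 12 pairs of members became 4 without days 48 and 50, which leaves 14 libraries, and 10 to 13 under the other 4 alternatives, among them 12 without day 49 replicate 1, a choice made after seeing the data. Without 1 library a group holds a lone sample that is assumed to vary like the others, and the filter then keeps genes seen in 1 library. The causes of the other changes were not tested. No direction of a called value was reversed.

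Replicate numbers did not pair the knockout libraries, while same-numbered sorted libraries deviated together in part. Deviations of same-numbered libraries from their group means had r of -0.27 to 0.13 over 36 pairs of days, with 1 pair over 0.1, and of -0.11 to 0.43 over 10 pairs of stage groups, with 6 over 0.1. With the replicate block, 4 members were called over the days, 1 on the line, 0 for the wave, 1 over the sorted groups, 2 in group D and 9 against sorted cells, as without it. Over all genes the line had 65 calls with the block. The sorted groups had 1670 with it against 1156 without, and group D had 1661 against 1239. Depth limits Insl3, Srd5a1 and Cyp19a1 most, since 3 counts came to as much as 2.24 CPM in a knockout library. Sorted values of Cyp11a1, Cyp17a1, Hsd3b1, Hsd3b6 and Hsd17b3 rest on 10 to 96 counts each in all.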
